A study of Mus musculus with 5 samples.

Results

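Peaks of DRIP-seq, a method used to map R-loops, were described in primary mouse mammary epithelial cells. Those chosen lay without RNA polymerase II (RNAPII) or NELF, but at a middle distance from RNAPII. They are the peaks of the DRIP list that overlapped no RNAPII, NELF-A or NELF-B peak, and whose nearest RNAPII peak was more than 10 kb and at most 100 kb away, edge to edge. They were selected on these overlaps and distances, which left 2648 of the 10031 DRIP peaks, or 26.4% (95% Wilson interval 25.5 to 27.3%). These were 35.5% (34.4 to 36.5%) of the 7469 DRIP peaks that lay on no other target, called DRIP-only peaks. They are called mid-distance peaks below.

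3 sets served for comparison: 2019 DRIP-only peaks within 10 kb of RNAPII (near peaks), 2802 DRIP-only peaks over 100 kb away (far peaks), and 2315 DRIP peaks on RNAPII. A further 247 DRIP peaks lay on NELF without RNAPII. Overlap and distance to RNAPII chose the mid-distance peaks, so those values are given as description only.

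All 4 lists came from the mammary epithelium of mixed-strain virgin mice, 6 to 8 weeks old. Glands from the thoracic and inguinal positions had been broken down to organoids and these to dispersed cells. RNAPII, NELF-A and NELF-B were mapped by ChIP-seq on sonicated chromatin, and R-loops by DRIP-seq on digested genomic DNA with the Kerafast ENH001 antibody. RNAPII was pulled down with Abcam ab5408 and the NELF subunits with homemade antibodies. For RNAPII and for DRIP the sample title gives 2 libraries, but each target had 1 list, so there was no spread between replicates. No gene, mutation or treatment was compared. DRIP-seq after RNase H treatment was not analysed here, so sensitivity of these peaks to RNase H is not known from these data. The cells were not checked against cell type markers, since the lists name no genes.

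An R-loop forms when RNA pairs with one DNA strand and leaves the other strand single, most often where RNA is being transcribed. R-loops are known at gene starts, along gene bodies and near gene ends, and RNase H removes their RNA. NELF holds RNAPII in a paused state shortly after transcription starts, so NELF-A and NELF-B peaks are usually found toward the start of a gene. NELF-B is also known as COBRA1, a partner of the tumour suppressor BRCA1.

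Positions are in mm9 and lie on a 250 bp grid. The score is the authors' own whole number per peak, with no stated unit, and is used here only to rank and describe DRIP peaks within their list. Its lowest value in the DRIP list was 38 and its median 58. Sequencing depth is unknown. Peaks are not replicates, and neighbouring peaks share their source, so the intervals cover counting error only and are narrower than intervals over independent regions would be. No p-values were computed.

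The mid-distance peaks were spread over 22.1% of the spanned genome at a density that fell with distance from RNAPII. The span ran from the first to the last base that the lists cover on each chromosome. Sequence under RNAPII, NELF-A or NELF-B peaks was left out. The genome 10 to 100 kb from an RNAPII peak made up 564.6 Mb, or 22.1% of this span. It held 4.69 DRIP-only peaks per Mb (95% Poisson interval 4.51 to 4.87). The density was 18.0 per Mb (17.3 to 18.8) within 10 kb and 1.49 per Mb (1.44 to 1.55) over 100 kb. The middle zone was thus 3.14 times as dense as the far zone. Sequence in which no peak can be called was not removed and its amount in each zone is not known. Ratios between zones are therefore approximate.

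Within the zone, density was 7.74 DRIP-only peaks per Mb at 10 to 20 kb, 5.65 at 20 to 30 kb, 4.57 at 30 to 40 kb and 3.63 at 50 to 60 kb. From 60 to 90 kb it lay between 3.40 and 3.51 per Mb, with overlapping intervals, and it was 2.82 per Mb at 90 to 100 kb. The next class, 100 to 200 kb, held 2.83 per Mb. It averages over a wider range of distance, so it cannot show whether there was a step at the outer bound.

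NELF-A peaks that lay on no other target gave a background measured the same way. Their density was 3.93 per Mb at 10 to 100 kb, 5.41 within 10 kb and 0.761 over 100 kb, a middle zone 5.17 times as dense as the far zone. A larger part of those lone NELF-A peaks lay in the middle zone, since 35.5% of DRIP-only peaks did so, against 52.2% (50.7 to 53.7%) of the lone NELF-A peaks. Distance to RNAPII chose the mid-distance peaks, so these shares are a description. Both kinds of peak were thus denser in the middle zone than in the far zone.

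**Figure D1:**
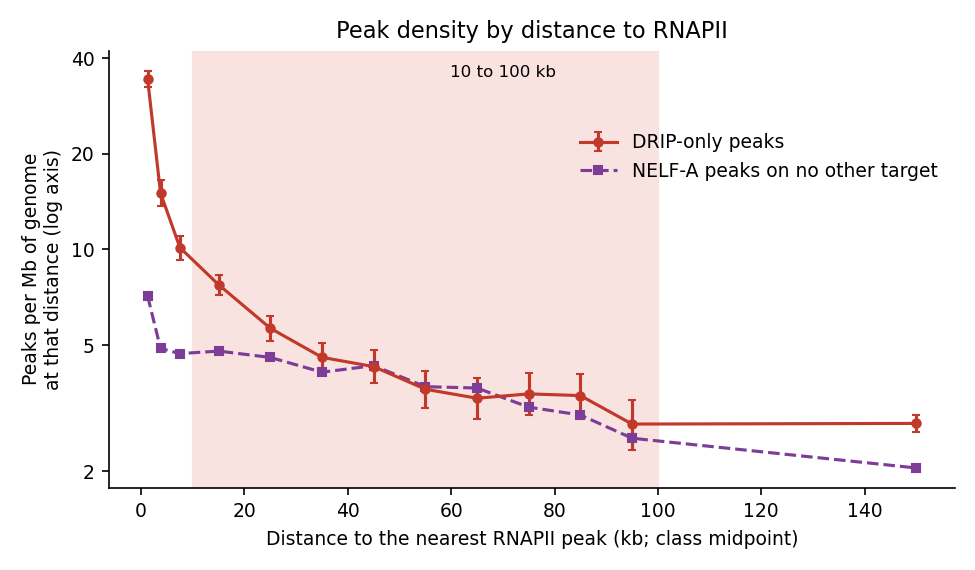
Peaks per Mb of genome (log axis) against distance to the nearest RNAPII peak in kb, drawn at the midpoint of each distance class, for DRIP-only peaks with 95% Poisson intervals and for NELF-A peaks on no other target. Between 10 and 100 kb (shaded) the DRIP-only density fell to 2.82 per Mb at 90 to 100 kb, against 7.74 per Mb at 10 to 20 kb, while lone NELF-A peaks started lower, at 4.79 per Mb.

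The bounds of the rule cut through a continuous range. Just inside the 10 kb bound, 16 DRIP-only peaks lay 10001 bp from RNAPII; those at chr10:80588501-80589000, chr11:51460251-51460750 and chr11:86369001-86369750 scored 43, 39 and 68. Just outside it, 21 lay at 9751 bp; those at chr1:24674251-24674750, chr1:137661751-137662250 and chr10:61791251-61791750 scored 48, 40 and 38. At the outer bound, 6 lay just inside at 99751 bp, where chr11:115670001-115670750, chr3:85478251-85479000 and chr4:120142001-120142500 scored 68, 62 and 40. The 4 just outside lay at 100001 bp, and chr1:87388001-87389250, chr14:55735001-55735750 and chr5:36336501-36337000 among them scored 103, 64 and 39. The named peaks are the first by chromosome name, sorted as text, among those tied at each distance, and their scores on the inner and outer side of each bound overlapped.

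Most mid-distance peaks were short. Their median width was 500 bp, the same as in far peaks, against 750 bp in near peaks and 1250 bp in DRIP peaks on RNAPII. Of the mid-distance peaks, 59.1% (57.2 to 60.9%) were exactly 500 bp wide, against 47.3% of near peaks, 58.3% of far peaks and 23.5% of DRIP peaks on RNAPII. Together they covered 2.21 Mb, or 20.3% of the covered length of the DRIP list, although they were 26.4% of its peaks.

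Widths of 1000 bp or more separated them from near peaks and from DRIP peaks on RNAPII, but not from far peaks. Such widths were found in 22.3% of mid-distance peaks (20.8 to 23.9%). In near peaks the share was 32.4%, a difference of -10.1 points (mid-distance minus near, Newcombe interval -12.7 to -7.49). In DRIP peaks on RNAPII it was 62.7%, a difference of -40.4 points (-42.8 to -37.8). In far peaks it was 20.3%, a difference of 2.01 points with an interval of -0.162 to 4.19 that includes 0.

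Wide peaks were slightly more frequent among mid-distance peaks than among far peaks. Widths of 3000 bp or more occurred in 67 mid-distance peaks (2.53%), against 1.68% of far peaks, a difference of 0.853 points (0.0900 to 1.64). Those of 5000 bp or more numbered 18 (0.680%), against 0.286% of far peaks, a difference of 0.394 points (0.0216 to 0.811). The lower ends of both intervals lay close to 0. The 90th percentile of width was 1250 bp in both classes. The widest far peak, at 55500 bp, was wider than the widest mid-distance peak, at 30000 bp. Near peaks had such widths of 5000 bp or more in 0.693%, a difference of -0.0137 points (-0.543 to 0.468).

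**Figure D2:**
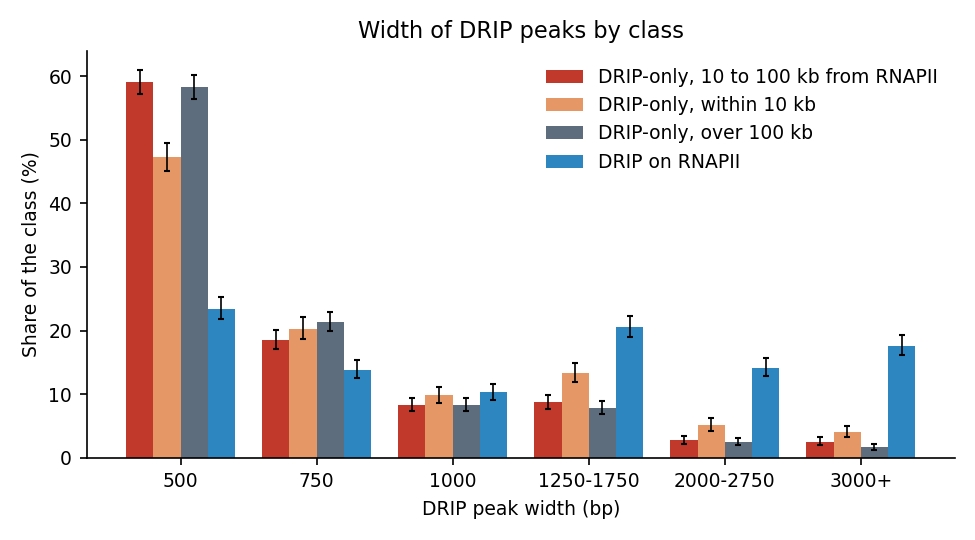
Share of each class of DRIP peak (%) in 6 classes of width in bp, with 95% Wilson intervals, for DRIP-only peaks 10 to 100 kb from RNAPII, within 10 kb and over 100 kb, and for DRIP peaks on RNAPII. The mid-distance bars stand at 59.1% for 500 bp, close to the far peaks at 58.3% and far above the peaks on RNAPII at 23.5%.

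Scores followed widths. The median score of mid-distance peaks was 43 (order-statistic 95% interval 43 to 44), with quartiles at 39 and 69 and a highest value of 4944. It was 57 (57 to 58) in near peaks, 44 (44 to 45) in far peaks and 103 (98 to 112) in DRIP peaks on RNAPII. Width and score were related across mid-distance peaks with Spearman's rho of 0.885, a description over peaks that all come from 1 list. No DRIP peak scored below 18.8 per 250 bp, so the lowest scores rose with width, which sets part of this relation.

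A score above the median of the whole DRIP list was found in 36.0% of mid-distance peaks (34.2 to 37.9%). Near peaks had one in 46.2%, a difference of -10.1 points (-13.0 to -7.29), and DRIP peaks on RNAPII in 73.1%, a difference of -37.1 points (-39.6 to -34.5). The difference from the 36.5% of far peaks was -0.447 points (-3.00 to 2.11). The top 10% of DRIP scores held 4.003% of mid-distance peaks, 5.94% of near peaks, 4.25% of far peaks and 27.2% of DRIP peaks on RNAPII.

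At equal width the differences were small. At 500 bp the median score was 40 in all 4 classes. At that width the lowest score was 38 in each class and the 90th percentile 44 or 45. This width thus left little room for a difference. At 1000 bp it was 80 (80 to 81) in the 219 mid-distance peaks of that width, 81 (80 to 82) in near peaks, 85 (83 to 88) in far peaks and 84 (82 to 85) in DRIP peaks on RNAPII. At 1500 bp the medians were 124 (122 to 128) in mid-distance peaks, 126 (124 to 129) in near peaks, 138 (130 to 154) in far peaks and 129 (125 to 133) in DRIP peaks on RNAPII. Mid-distance peaks were thus lower than far peaks at equal widths of 1000 and 1500 bp, with intervals that did not overlap.

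A dense score was rarer in mid-distance peaks than in far peaks and more frequent than in near peaks. A score per 250 bp of at least 2 times the lowest in the DRIP list was reached by 33 mid-distance peaks, or 1.25% (0.889 to 1.74%). Near peaks reached it in 0.198% (difference 1.05 points, 0.575 to 1.56). Far peaks reached it in 2.36% (difference -1.11 points, -1.83 to -0.403), and DRIP peaks on RNAPII in 7.08%.

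The mid-distance peaks with the highest scores lay in a few places, and 2 of the top 5 were on chromosome 6. Whether repeated or multi-copy sequence raised the scores at these places was not tested, since no mm9 sequence was used. The highest, chr6:47687001-47717000, was 30000 bp wide and scored 4944, the fifth highest score in the DRIP list. Its nearest RNAPII peak, 21251 bp away, was 500 bp wide. The next, chr6:47614001-47637250, was 23250 bp wide, scored 3654 and lay 68251 bp from RNAPII on its other side. A gap of 49751 bp with no DRIP peak separated them.

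The chromosome 6 block held more DRIP signal than the pair alone. To one side of the 30000 bp peak lay 3 further mid-distance peaks, at chr6:47717501-47721750, chr6:47721751-47723250 and chr6:47725001-47727750, with scores of 636, 160 and 403. On the other side of the block, small peaks at chr6:47599251-47599750 and chr6:47613501-47614000 scored 41 and 44. Between those small peaks lay a DRIP peak on NELF without RNAPII, chr6:47601251-47613500, which was 12250 bp wide and scored 1914. In all, 7 mid-distance peaks, the highest one included, lay within 100 kb of it.

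The other top scores had other surroundings. On chromosome 1, chr1:24618001-24623250 was 5250 bp wide, scored 3315 and stood alone, with the next DRIP peak 51001 bp away. Its score per 250 bp of 158 was the fifth highest of all DRIP peaks. It lay 61251 bp from an RNAPII peak at chr1:24684501-24686750 that carried NELF-A, NELF-B and DRIP peaks.

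On the X chromosome, chrX:166497001-166510000 was 13000 bp wide and scored 3222. It lay 60751 bp from RNAPII, with 4 smaller mid-distance peaks after it that scored 377, 38, 44 and 84. A far DRIP-only peak, chrX:166577501-166633000, began 67501 bp from its edge and scored 11510. On the RNAPII side, DRIP peaks on RNAPII at chrX:166426501-166434500 and chrX:166434501-166447250 scored 3030 and 3875. High DRIP scores thus extended from RNAPII peaks to beyond 100 kb at this place, in separate peaks.

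The fifth score, 1540, belonged to chr15:75932001-75937750, 5750 bp wide and 20001 bp from RNAPII. It was the highest of 14 mid-distance peaks within 100 kb of it, itself included. Among these were chr15:75999001-76007000, 8000 bp wide with a score of 792, and 6 small peaks between chr15:75947751 and 75955000 with scores of 39 to 59. The 3 widest mid-distance peaks of all were the chromosome 6 pair and the X chromosome peak. At the other end, 1 mid-distance peak was 250 bp wide and the rest were 500 bp or wider.

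Mid-distance peaks were less crowded than near peaks and DRIP peaks on RNAPII, and more crowded than far peaks. Another DRIP peak lay within 10 kb of 49.5% of them (47.6 to 51.4%). The share was 77.3% in near peaks, a difference of -27.8 points (-30.4 to -25.1), and 80.4% in DRIP peaks on RNAPII. It was 27.0% in far peaks, a difference of 22.5 points (19.99 to 25.02). The share was below that of near peaks on 20 of 20 chromosomes and above that of far peaks on 19 of 20. The exception was chromosome 8, with 62.4% in mid-distance peaks and 71.4% in far peaks.

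The same order held at other scales. Peaks that touched another DRIP peak without a gap were 7.18% of mid-distance peaks, 13.8% of near peaks, 3.39% of far peaks and 16.0% of DRIP peaks on RNAPII. The median distance to the nearest other DRIP peak was 10751 bp (8501 to 12751) for mid-distance peaks, 1251 bp for near peaks and 76251 bp for far peaks. No other DRIP peak lay within 100 kb of 13.0% of mid-distance peaks, 8.12% of near peaks and 45.3% of far peaks.

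The neighbours of mid-distance peaks were mostly other mid-distance peaks. Of the 1311 with a DRIP peak within 10 kb, the nearest one was another mid-distance peak in 1211 cases (92.4%). It was a near peak in 68, a peak on NELF without RNAPII in 22, a far peak in 6 and a peak on RNAPII in 4. The distance rule sets much of this, because a neighbour within 10 kb of a mid-distance peak is itself at a similar distance from RNAPII. The other classes also neighboured their own kind. Of far peaks with a DRIP peak within 10 kb, the nearest one was another far peak in 97.4%. For near peaks it was another near peak in 65.5%.

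**Figure D3:**
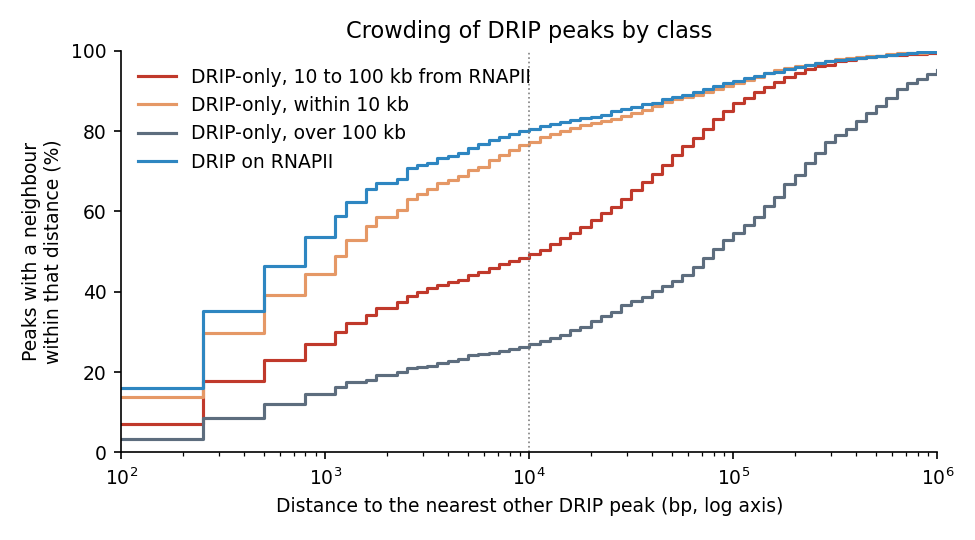
Share of DRIP peaks (%) whose nearest other DRIP peak lies within the distance on the x axis (bp, log axis), for DRIP-only peaks 10 to 100 kb from RNAPII, within 10 kb and over 100 kb, and for DRIP peaks on RNAPII. At 10 kb (dotted line) the mid-distance curve is at 49.5%, between the near peaks at 77.3% and the far peaks at 27.0%.

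Joined wherever neighbours lay at most 10 kb apart, the mid-distance peaks formed 1845 runs. Of these, 1409 were single peaks, 255 were pairs and 181 held 3 or more, with 5 or more in 44 of them. Runs of 3 or more took in 729 mid-distance peaks, or 27.5% (25.9 to 29.3%). The same step put 33.0% (31.0 to 35.1%) of near peaks and 13.3% (12.1 to 14.6%) of far peaks into runs of 3 or more of their own class.

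Peaks in runs scored higher, were wider and lay closer to RNAPII than single ones. Their median score was 58 (57 to 59), against 42 (42 to 43) for single mid-distance peaks. A width of 1000 bp or more was found in 34.8% (31.5 to 38.4%) of those in runs of 3 or more, against 13.1% (11.5 to 15.0%) of single ones. Their median distance to RNAPII was 28751 bp (27001 to 31001), against 39751 bp (37501 to 42251) for single ones. Near peaks in runs had a median score of 59 and single near peaks 47, and for far peaks the values were 63 and 43. Their distances did not follow the same order. Near peaks in runs lay a median of 3001 bp (2751 to 3501) from RNAPII, and single near peaks 1501 bp (1251 to 1751). For far peaks the medians were 403751 bp in runs and 328751 bp for single peaks, with overlapping intervals.

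The largest run, chr8:126084001-126149000, held 18 mid-distance peaks over 65000 bp, of which 17.7% was covered. Its scores ran between 38 and 215 with a median of 59.5, and the highest belonged to the peak nearest to RNAPII, 24501 bp away. Its peaks lay 24501 to 82001 bp from RNAPII. No peak in it was wider than 1250 bp, so it was a row of small peaks.

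Both runs of 12 were on chromosome 1 and were more continuous. The run at chr1:87500751-87532000 spanned 31250 bp, of which 54.4% was covered, and its scores ran between 38 and 663. Its peaks chr1:87502001-87506750 and chr1:87517001-87521500, 4750 and 4500 bp wide, scored 452 and 663, and the other 10 scored 114 or less. Its first peak lay 11001 bp from RNAPII and its last 41501 bp.

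The run at chr1:172993501-173015250 spanned 21750 bp, of which 83.9% was covered. Its scores ran between 46 and 299 with a median of 124, and it had the highest covered share of the 3. Its peaks lay 28251 to 46751 bp from RNAPII, and 16751 to 26501 bp from NELF-A. None of the 3 runs held a NELF-A peak or a DRIP peak of another class within its span. The next in size held 9 peaks at chr4:125800751-125827500 and 8 at chr7:38960751-38983000, and the run of 8 had 3 NELF-A peaks between its members.

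**Figure D4:**
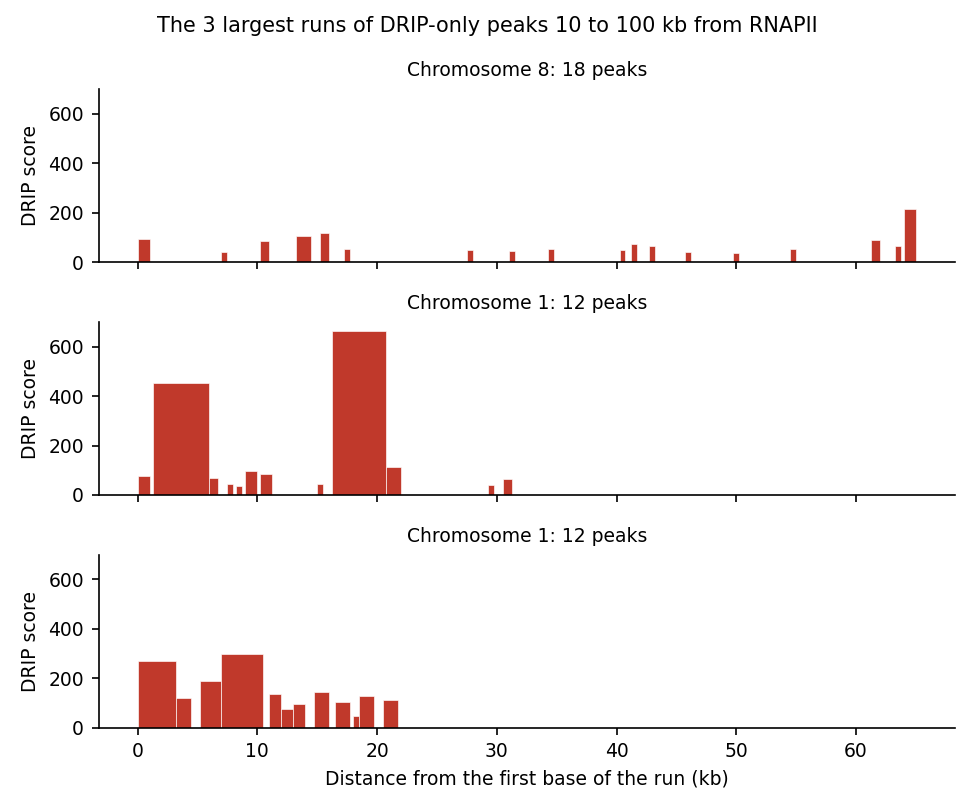
DRIP score of each peak in the 3 largest runs of DRIP-only peaks 10 to 100 kb from RNAPII, against distance in kb from the first base of the run; each bar is 1 peak and its breadth is the peak's width. The run of 18 on chromosome 8 is a row of small peaks with scores up to 215, while the runs of 12 on chromosome 1 reach 663 and 299.

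Within the zone, crowding was lower farther from RNAPII, while median scores stayed within each other's intervals. The 2648 peaks comprised 723 at 10 to 20 kb (27.3%), 794 at 20 to 40 kb, 674 at 40 to 70 kb and 457 at 70 to 100 kb, with a median distance of 33751 bp (32001 to 35001). Another DRIP peak lay within 10 kb of 62.2% (58.7 to 65.7%), 53.7% (50.2 to 57.1%), 40.8% (37.2 to 44.6%) and 35.0% (30.8 to 39.5%) of them in that order. The median scores were 43, 44, 43.5 and 43, and their intervals overlapped. Widths of 1000 bp or more were found in 25.03% (22.0 to 28.3%) at 10 to 20 kb and 19.5% (16.1 to 23.4%) at 70 to 100 kb, and those intervals overlapped too.

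NELF-A was near a minority of mid-distance peaks and NELF-B near few. NELF-A lay within 10 kb of 395 of them, or 14.9% (13.6 to 16.3%), against 84.0% of near peaks and 5.53% of far peaks. The difference from far peaks was 9.39 points (7.79 to 11.0). NELF-B lay within 10 kb of 3.25%, against 45.2% of near peaks and 2.28% of far peaks. NELF-A and RNAPII share many sites, so the distance rule bounds these shares in part.

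Close contacts with NELF were few. NELF-A lay within 1000 bp of 88 mid-distance peaks (3.32%), against 23.9% of near peaks and 1.57% of far peaks, and the difference from far peaks was 1.75 points (0.938 to 2.61). NELF-B lay within 1000 bp of 16 mid-distance peaks (0.604%), against 9.56% of near peaks and 0.428% of far peaks, and the interval of the difference from far peaks, -0.218 to 0.593 points, includes 0. NELF-A was nearer than RNAPII for 1282 mid-distance peaks (48.4%, 46.5 to 50.3%), against 19.9% of near peaks and 70.9% of far peaks. NELF-B was nearer than RNAPII for 288 (10.9%), against 2.53% of near peaks and 23.5% of far peaks. Both counts include NELF peaks that overlap the nearest RNAPII peak and reach closer. For chr6:47687001-47717000, such a NELF-A peak lay 21001 bp away and the RNAPII peak 21251 bp. The lists also differed in size, with 10782 NELF-A, 7718 RNAPII and 3925 NELF-B peaks. The median distance was 25501 bp (24251 to 27001) to NELF-A and 57751 bp (55001 to 60751) to NELF-B.

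The NELF-A peaks beside mid-distance peaks were almost all away from RNAPII. Of the 395 mid-distance peaks with NELF-A within 10 kb, the nearest NELF-A peak overlapped RNAPII in 5 cases, or 1.27%. The distance rule fixes this value in large part. It overlapped NELF-B in 61 cases, or 15.4% (12.2 to 19.3%), against 11.7% (10.9 to 12.7%) of all NELF-A peaks off RNAPII, and those intervals overlapped. The 15.4% counts mid-distance peaks, so a shared NELF-A peak can count more than once, while the 11.7% counts each NELF-A peak once. Across the zone, NELF-A within 10 kb was found for 16.5%, 18.5%, 12.8% and 9.41% at 10 to 20, 20 to 40, 40 to 70 and 70 to 100 kb.

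Most mid-distance peaks were flanked by RNAPII within 100 kb on 1 side. RNAPII lay within 100 kb on both sides of 880 of them, or 33.2% (31.5 to 35.0%). For the 2632 with RNAPII on both sides at any distance, the median stretch free of RNAPII around them was 203500 bp, and the RNAPII peak on the other side lay a median of 154501 bp away.

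The nearest RNAPII peaks carried NELF more often than the RNAPII list as a whole, and DRIP about as often. The mid-distance peaks had 1509 different nearest RNAPII peaks. The rule lets only RNAPII peaks that face more than 10 kb free of RNAPII enter this set, while the whole list has no such limit. Whether this accounts for the differences was not tested, and RNAPII peaks nearest to far peaks were not examined. NELF-A overlapped 83.5% (81.5 to 85.3%) of these, against 72.3% (71.3 to 73.3%) of all 7718 RNAPII peaks, which include them. NELF-B overlapped 45.0% (42.5 to 47.5%) of them, against 38.2% (37.2 to 39.3%) of all. DRIP overlapped 22.3% (20.2 to 24.4%) of them, against 22.2% (21.3 to 23.1%) of all and 33.3% (30.8 to 35.9%) of the RNAPII peaks nearest to near peaks. RNAPII peaks 5 kb or wider were 3.18% of them, 3.61% (2.73 to 4.75%) of those nearest to near peaks and 5.30% of all. Of the RNAPII peaks nearest to near peaks, NELF-A overlapped 76.7% (74.4 to 78.9%) and NELF-B 39.3% (36.7 to 41.9%).

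Several mid-distance peaks often shared 1 RNAPII peak. Of the 1509 nearest RNAPII peaks, 952 had 1 mid-distance peak, 68 had 5 or more and the maximum was 18. In all, 64.0% of mid-distance peaks shared their nearest RNAPII peak with another.

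The side of RNAPII on which mid-distance peaks lay was measured where the polymerase peak could be oriented by NELF. After touching RNAPII peaks were joined, those at least 2 kb wide with their highest NELF-A peak centred in the outer 25% at 1 end were kept. This gave a side to 204 mid-distance peaks (7.70%). Of these, 119 lay beyond the end away from NELF-A and 85 beyond the NELF-A end, a share of 58.3% (exact Clopper-Pearson interval 51.2 to 65.2%).

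The share came closer to 50% when each RNAPII peak was counted once. Of 121 such RNAPII peaks, 61 had more mid-distance peaks beyond the end away from NELF-A, 54 had more beyond the NELF-A end and 6 had equal numbers, a share of 53.0% (43.5 to 62.4%) that includes 50%. Without the RNAPII peak at chr15:76028251-76030500, whose 6 mid-distance peaks all lay beyond the end away from NELF-A, the share of peaks was 57.1% (49.9 to 64.1%), which also includes 50%. It was 57.4% (50.1 to 64.4%) without the RNAPII peak with the most, chr1:95132001-95135000 with 7, and 59.8% (52.6 to 66.7%) without chr11:116707251-116715500 with 5, and those intervals do not include 50%. With RNAPII peaks of 5 kb or more it was 52.3% (39.5 to 64.9%) of 65. With NELF-A in the outer 10% it was 52.3% (36.7 to 67.5%) of 44, and by NELF-B 57.1% (48.7 to 65.3%) of 147. The upper 50% of RNAPII scores gave 61.2% (55.8 to 66.5%) of 338, and that of DRIP scores 72.5% (60.4 to 82.5%) of 69. Bounds of 5 and 50 kb gave 65.1% (57.6 to 72.2%) of 175, and 20 and 200 kb 47.2% (40.3 to 54.1%) of 212. A side preference of mid-distance peaks was therefore not established. Near peaks lay beyond the end away from NELF-A in 62.9% (54.5 to 70.9%) of 143, and far peaks in 32.1% (25.5 to 39.3%) of 187. The value for near peaks was not stable: it was 39.0% (24.2 to 55.5%) of 41 with RNAPII peaks of 5 kb or more, and 52.4% (29.8 to 74.3%) of 21 with NELF-A in the outer 10%. Far peaks gave 32.5% (22.4 to 43.9%) of 80 and 28.6% (17.3 to 42.2%) of 56 in those settings.

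The mid-distance peaks were found on all 20 chromosomes with DRIP peaks. Their share of a chromosome's DRIP peaks was highest on chromosome 4, at 33.6% (30.1 to 37.4%), and on chromosome 11, at 33.5% (30.9 to 36.2%). It was lowest on chromosome 13, at 19.2% (14.5 to 25.1%), and on the X chromosome, at 19.4% (14.2 to 26.0%). Chromosome 11 held the most, with 401 or 3.38 per Mb, and the X chromosome the fewest per Mb, with 33 or 0.202 per Mb.

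Chromosomes with more RNAPII peaks per Mb had more mid-distance peaks per Mb. Over the 20 chromosomes Spearman's rho was 0.847 and Pearson's r 0.902. The rule requires an RNAPII peak within 100 kb, so the 2 densities are tied by construction, and the chromosomes share the same libraries. With the share of DRIP peaks in place of the density, rho was 0.558 and r 0.615, again as a description with no test.

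**Figure D5:**
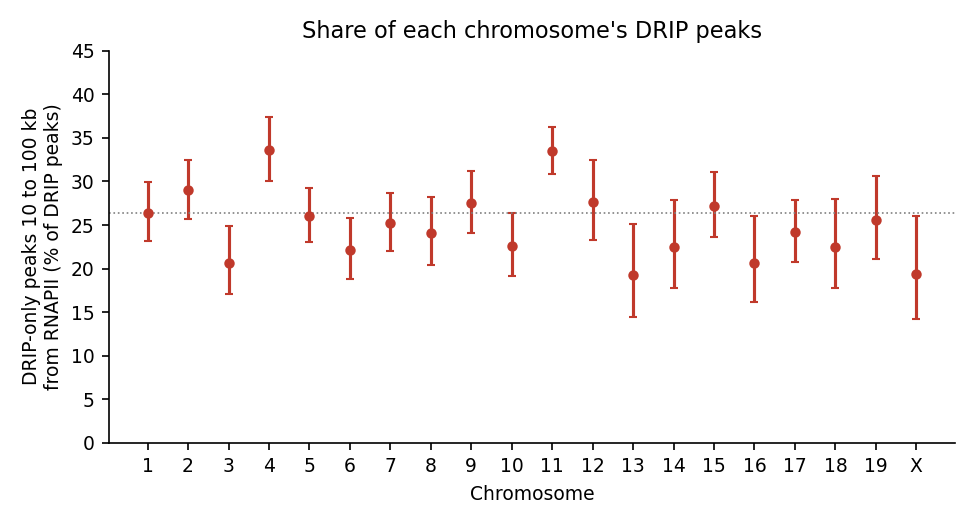
DRIP-only peaks 10 to 100 kb from RNAPII as a share of all DRIP peaks (%) on each of the 20 chromosomes, with 95% Wilson intervals; the dotted line is the share over all chromosomes, 26.4%. Chromosomes 4 and 11 stand highest, at 33.6% and 33.5%, and chromosome 13 lowest, at 19.2%.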

How the data were processed

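RNAPII, NELF-A and NELF-B ChIP-seq and DRIP-seq peak lists were analysed, 1 deposited list per target, from 4 of the 5 samples. BWA alignment to mm9 is recorded in the submitters' processing notes. The peak caller, its threshold, any input control and how the 2 libraries named in the RNAPII and DRIP titles were combined were not given in the sources used here. The authors' value per peak is a deposited whole number of unknown unit, called the score. Per the labels, libraries had 15 PCR cycles for RNAPII and DRIP and 18 for NELF. Depth is unknown.

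Overlap meant 1 bp or more. Distance ran from the last base of one peak to the first base of the other (touching peaks: 1 bp). Shares carry 95% Wilson intervals, differences Newcombe's, medians order-statistic intervals, densities Poisson intervals and sides Clopper-Pearson intervals (Python 3.11.15, pandas 2.3.3, scipy 1.17.1, statsmodels 0.14.6). The computations were tested on simulated data. Regions named were the 5 highest scores, the 3 widest, the 3 largest runs and 3 peaks nearest each bound on either side (ties taken by chromosome name, sorted as text), with their neighbours and next-largest runs named after their values were seen. The set of peaks, the comparisons and the lists were chosen with earlier results of these data known. Gene and sequence context was not run, since no mm9 genome or annotation was used here and coordinates were not converted.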

Additional observations from a re-analysis of the deposited data

How the results depend on the processing

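Of 67 recomputed values, 50 moved by less than their interval or, for counts, less than 1.5 times. With the upper 50% of DRIP scores alone, mid-distance peaks numbered 1028, with a median width of 1000 bp, a median score of 80 and 72.5% beyond the RNAPII end away from NELF-A; selection by score sets the first 3 by construction. The share with another DRIP peak within 10 kb was 46.5% with touching peaks joined, 55.6% with the upper 50% of RNAPII scores, 60.1% with bounds of 5 and 50 kb, 40.5% with bounds of 20 and 200 kb, and 43.8% and 57.9% for a reach of 5 and 20 kb. The share with NELF-A nearby was 11.96% when peaks of other lists within 1000 bp counted as overlap, 16.5% by distance between centres, 24.1% with the upper 50% of RNAPII scores, 31.4% with bounds of 5 and 50 kb, 12.4% with bounds of 20 and 200 kb and 40.7% for a reach of 20 kb. Bounds of 20 and 200 kb put 47.2% beyond the end away from NELF-A. Other bounds and reaches select other peaks or count more of them by construction; for the rest the cause was not tested. Measuring bases between edges (2636 peaks) and counting each RNAPII peak once were chosen after seeing the data. No replicate could be left out, with 1 list per target. No paired analysis was possible because each target has 1 list. Unknown depth limits every statement about peaks that are not in a list.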
